A study of Homo sapiens with 6 samples.

Results

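The genes described here are TXNIP and 8 genes tied to glucose-responsive transcription, measured in EndoC-βH1, a beta cell line of human origin, with and without a guide RNA against ZHX3. They are the alpha-arrestins TXNIP, ARRDC4 and ARRDC3, the transcription factors MLXIPL, MLXIP and MLX, the zinc-finger factors KLF10 and KLF11, and the liver-type pyruvate kinase gene PKLR. The 9 genes were taken by symbol from a table of 26485 gene symbols, and all 9 had enough counts to be among the 16199 genes tested. They were picked with fold changes of this same comparison already known, so their own levels and fold changes are given as a description, with no test.

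The libraries labelled sgZHX3-3 came from 3 cultures of EndoC-βH1 that had received the lentiviral vector lentiCRISPRv2 with a single guide, sgZHX3-3, aimed at the first coding exon of ZHX3; their genotype label is ZHX3 KO. The libraries labelled Empty came from 3 cultures that had received the same vector without a guide, and their genotype label is WT. All cultures therefore carried the vector, which encodes the Cas9 nuclease, and were grown as stable lines after selection with an antibiotic. Replicates are numbered 1 to 3 in the titles, which do not say whether these are separately made lines, so errors and p-values may measure the spread between cultures only. With a single guide, effects of losing ZHX3 and other effects of that guide cannot be told apart. Glucose in the medium is not given in the labels.

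MLXIPL encodes ChREBP and MLXIP encodes MondoA, a pair of factors that enter the nucleus and activate genes when glucose 6-phosphate accumulates, each as a dimer with MLX. The dimer binds the carbohydrate response element, a pair of E-box-like boxes set a fixed distance apart. In beta cells TXNIP is the best known of its targets: the TXNIP protein binds and inhibits thioredoxin, lowers glucose uptake and, when raised for long, promotes beta cell death. ARRDC4 is a paralogue of TXNIP that also restrains glucose uptake and answers to the same factors. PKLR is the classical ChREBP target of liver. KLF10 is a further target, and KLF11, its closest relative, is a regulator of insulin transcription.

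Depth was 45101454 to 61051884 counts per library. ZHX3 RNA itself was higher in the libraries labelled sgZHX3-3, at 177 ± 8.62 CPM (SD, n = 3), than in those labelled Empty, at 105 ± 4.19 CPM (SD, n = 3). CPM is the counts-per-million scale. ZHX3 RNA was thus not lower under the ZHX3 KO label. The RNA level alone does not show whether the protein was lost, and these libraries do not measure protein. Every direction below is drawn from the labels. The 10 beta cell markers checked were all present, and their summed level was 35990 to 43984 CPM in sgZHX3-3 and 31068 to 39053 CPM in Empty, with 6 of them called higher and 0 lower; their part in the results below was not tested. Of the other islet hormone markers GCG, PPY and HHEX stayed below 1 CPM in every library, as did 5 of 7 exocrine markers and 5 of 7 stromal, endothelial and blood markers. The Empty libraries were not alike: the summed level of 8 heat shock and oxidative stress genes was 695, 755 and 677 CPM in sgZHX3-3 libraries 1, 2 and 3, against 799, 1316 and 1517 CPM in Empty 1, 2 and 3, with 3 of them called lower and 0 higher in sgZHX3-3. Each member is therefore also given without Empty 2 and 3.

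The start regions of TXNIP, ARRDC4 and PKLR are shown because TXNIP and PKLR each hold a match to the carbohydrate response element there, while ARRDC4, a TXNIP paralogue, holds none in the window searched. Sequences are those of RefSeq (GRCh38.p14), read 5′ to 3′ on the gene's own strand. Capitals mark each match to the carbohydrate response element (a 6-base box with 5 set bases, a spacer of 5 unset bases and a second 6-base box with 4 set bases), to CACGTG (E-box, which can also lie inside the longer motif) and to CCAAT (the box bound by NF-Y), each searched on both strands, so a CCAAT box on the other strand reads ATTGG. TXNIP is shown from −150 to −51 relative to its start (chr1:145996630-145996729, minus strand), ARRDC4 from −220 to −51 (chr15:97960483-97960652, plus strand) and PKLR from −150 to −51 of its inner start (chr1:155301003-155301102, minus strand).
TXNIP: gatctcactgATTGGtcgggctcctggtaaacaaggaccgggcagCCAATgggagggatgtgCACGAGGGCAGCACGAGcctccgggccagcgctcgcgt
ARRDC4: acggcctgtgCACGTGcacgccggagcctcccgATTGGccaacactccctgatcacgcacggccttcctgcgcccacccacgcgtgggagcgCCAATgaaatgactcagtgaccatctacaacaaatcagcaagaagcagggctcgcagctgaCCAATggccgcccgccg
PKLR: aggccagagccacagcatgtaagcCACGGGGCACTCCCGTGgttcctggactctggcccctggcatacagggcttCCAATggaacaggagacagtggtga

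The match lay from −88 to −72 in TXNIP and from −126 to −110 in PKLR. Set side by side, with the outer boxes in capitals and the spacer in lower case, the 2 sites read as follows.
TXNIP: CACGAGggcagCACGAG
PKLR: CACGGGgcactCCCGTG
Windows of 250 bases before a start were used for 8 of the 9 genes, 12 windows in all since several genes have more than 1 start. The window of KLF10 was left out and not searched, so the counts below do not cover that gene. A match to the carbohydrate response element was present in 2 of these 12 windows, against 0.424% of 35116 windows of all genes. TXNIP and PKLR were already known as targets of the factors that bind this element, so these shares describe the windows and test nothing. The E-box was in 4 of the 12 windows, those of ARRDC4, MLX, KLF11 and the outer start of PKLR, against 6.34% of all windows. A CCAAT box was in 6 of the 12, those of TXNIP, ARRDC4, ARRDC3, MLXIP, MLX and PKLR, against 32% of all windows. TXNIP held 2 CCAAT boxes and ARRDC4 held 3, whereas 9.53% of all windows held 2 or more. These are matches of letters, not measured binding, and a window without a match says nothing about elements elsewhere.

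TXNIP was the gene with the widest difference among the 9. It had 16, 17 and 12 counts in sgZHX3-3 libraries 1, 2 and 3, against 78, 106 and 110 counts in Empty 1, 2 and 3. This was 0.358, 0.341 and 0.199 CPM in sgZHX3-3 and 1.67, 1.79 and 2.24 CPM in Empty. The groups lay far apart, the highest sgZHX3-3 library being below every Empty library. The exact 95% Poisson interval was 0.205 to 0.581 CPM for that library and 1.32 to 2.08 CPM for the lowest Empty library. These intervals describe counting error only and are not a test, since TXNIP was picked with this comparison known. The mean was 0.299 ± 0.0872 CPM (SD, n = 3) in sgZHX3-3 and 1.90 ± 0.301 CPM (SD, n = 3) in Empty, a 6.35-fold difference of means and a log2 fold change of −2.69 (SE, standard error, 0.260). Only 3 of the 16199 tested genes had a lower log2 fold change. This rank is no test either, for the same reason, and genes with few counts reach extreme fold changes more easily. Without Empty 2 and 3 the value was −2.50, and with any single library left out it stayed between −2.83 and −2.44. Empty 1, which remains when Empty 2 and 3 are left out, was itself above the 3 sgZHX3-3 libraries in the summed level of the heat shock and oxidative stress genes, and the part of these genes in the TXNIP value was not tested. In bulk RNA, fewer cells that express a gene and less of its RNA per cell cannot be told apart. The TXNIP gene (ENSG00000265972.5, chromosome 1, 145992435 to 145996600, minus strand, GRCh38) overlaps no other gene of GENCODE 29.

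**Figure D1:**
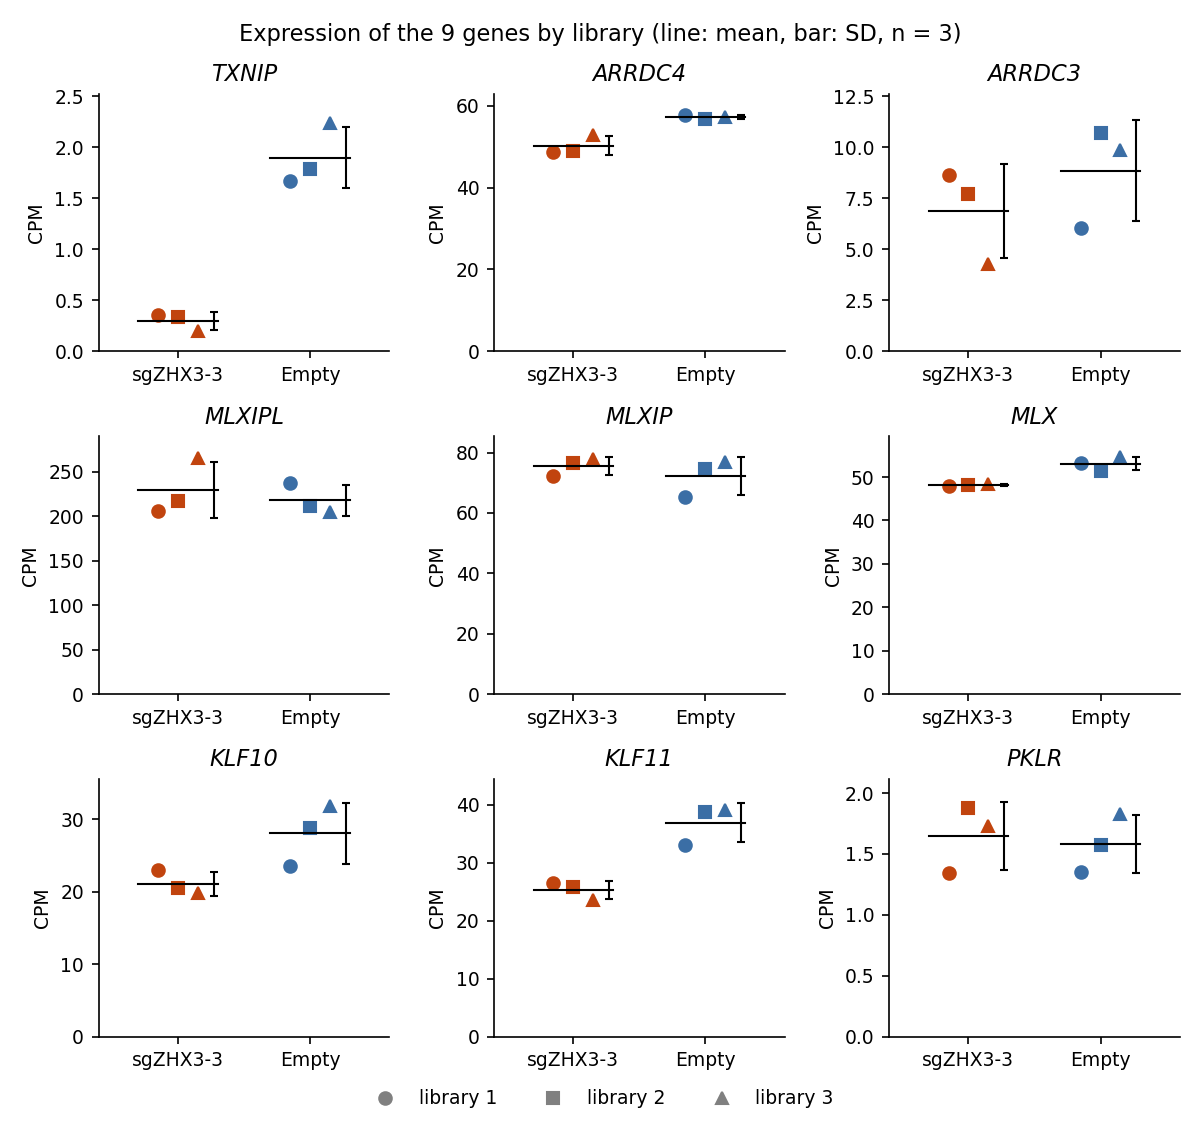
CPM (vertical axes, from 0) of the 9 genes in the 3 sgZHX3-3 libraries (left, orange) and the 3 Empty libraries (right, blue); lines are means and bars SD, and marker shapes give the library number within a group. TXNIP shows a gap between the groups (0.299 against 1.90 CPM on average), ARRDC4, MLX, KLF10 and KLF11 sit lower in every sgZHX3-3 library by smaller steps, and the groups overlap for the other 4.

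ARRDC4, the TXNIP paralogue, was lower by far less. It had 48.7, 49.0 and 52.9 CPM in sgZHX3-3 and 57.8, 56.8 and 57.3 CPM in Empty, so the groups did not overlap and the Empty libraries differed by little among themselves. The means were 50.2 ± 2.34 CPM (SD, n = 3) in sgZHX3-3 and 57.3 ± 0.501 CPM (SD, n = 3) in Empty, a log2 fold change of −0.19 (SE 0.0568). It was −0.20 without Empty 2 and 3. ARRDC3, an alpha-arrestin known for its part in beta-adrenergic receptor trafficking, had 8.64, 7.72 and 4.27 CPM in sgZHX3-3 and 6.03, 10.7 and 9.86 CPM in Empty. Those groups overlapped, with the lowest value in sgZHX3-3 library 3 and the highest in Empty 2. Its log2 fold change of −0.38 had a standard error of 0.314 and was 0.18 without Empty 2 and 3. ARRDC3 overlaps the RNA gene ARRDC3-AS1 on the other strand, and whether counting used strand is not stated in the labels, so reads of the overlap may be shared between them.

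Within the alpha-arrestin family, TXNIP made up a very small share of the RNA. Per exon length it was 0.384%, 0.362% and 0.200% of the summed level of TXNIP and ARRDC1 to ARRDC4 in sgZHX3-3, and 1.65%, 1.77% and 2.22% in Empty. ARRDC4 was the most abundant of the family, at 46.7 ± 0.556% (SD, n = 3) in sgZHX3-3 and 50.4 ± 0.509% (SD, n = 3) in Empty. ARRDC1 followed, at 37.2 ± 0.978% (SD, n = 3) in sgZHX3-3 and 31.6 ± 1.36% (SD, n = 3) in Empty. ARRDC5 had no count in any library, which allows up to 0.0671 CPM in the shallowest one (3 counts). The family members outside the 9 genes that could be tested, ARRDC1 (log2 fold change 0.16, edgeR adjusted p = 0.149) and ARRDC2 (0.02, adjusted p = 0.895), did not pass.

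The genes of the glucose-sensing factors themselves differed little. MLXIPL had 206, 217 and 265 CPM in sgZHX3-3 and 237, 211 and 205 CPM in Empty; the groups overlapped and the highest value was that of sgZHX3-3 library 3. Its log2 fold change was 0.08 with a standard error of 0.0874 and a 95% interval from −0.11 to 0.27, and it was −0.04 without Empty 2 and 3. MLXIP had 72.1, 76.4 and 77.8 CPM in sgZHX3-3 and 65.2, 74.6 and 76.8 CPM in Empty. These overlapped too, Empty 1 being the lowest, with a log2 fold change of 0.06 (standard error 0.0668, 95% interval −0.08 to 0.21), or 0.21 without Empty 2 and 3. The intervals leave room for changes of about that size and do not show that the levels were equal.

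MLX, the shared partner of both, was slightly lower. It had 47.9, 48.1 and 48.4 CPM in sgZHX3-3 and 53.2, 51.5 and 54.6 CPM in Empty, with no overlap and a nearly constant level in sgZHX3-3. The means were 48.1 ± 0.209 CPM (SD, n = 3) in sgZHX3-3 and 53.1 ± 1.52 CPM (SD, n = 3) in Empty, a log2 fold change of −0.14 (SE 0.0546), and −0.14 without Empty 2 and 3. MLX overlaps PSMC3IP on the other strand, and PSMC3IP fell by 0.55 on the log2 scale (26.0 ± 1.66 CPM in sgZHX3-3 and 38.1 ± 4.42 CPM in Empty, SD, n = 3; edgeR adjusted p = 0.00165). Without the strand setting, reads from the overlap cannot be assigned to either gene, and the part of PSMC3IP in the MLX value was not tested.

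Per kilobase of exon, MLXIPL was the most abundant of the 9 genes and far above MLXIP. In order, the mean levels over the 6 libraries were 46.4 CPM per kb for MLXIPL, 13.2 for ARRDC4, 11.9 for MLX, 6.77 for KLF11, 6.15 for KLF10 and 5.31 for MLXIP. ARRDC3 (1.59), PKLR (0.511) and TXNIP (0.303 CPM per kb) followed at the low end. MLXIPL lay above all others in every library (42.5 to 55.0 CPM per kb). Over the 6 libraries pooled, ranges overlapped between ARRDC4 and MLX, among KLF11, KLF10 and MLXIP, and between PKLR and TXNIP. These ranges include differences between groups. In sgZHX3-3, ARRDC4 (12.3 ± 0.574, SD, n = 3) lay above MLX (11.3 ± 0.049) and PKLR (0.521 ± 0.088) above TXNIP (0.0826 ± 0.024). In Empty, ARRDC4 (14.1 ± 0.123) lay above MLX (12.5 ± 0.357) and KLF11 (8.04 ± 0.732) above MLXIP (5.19 ± 0.442). KLF11, KLF10 and MLXIP in sgZHX3-3, and PKLR and TXNIP in Empty, were not separated beyond their SD. Of the summed per-length level of MLXIPL and MLXIP, MLXIPL held 89.7 ± 0.925% (SD, n = 3) in sgZHX3-3 and 89.6 ± 1.46% (SD, n = 3) in Empty. Exon length was that of all annotated exons merged, so genes with long untranslated regions such as MLXIP come out lower than they would on coding length.

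**Figure D2:**
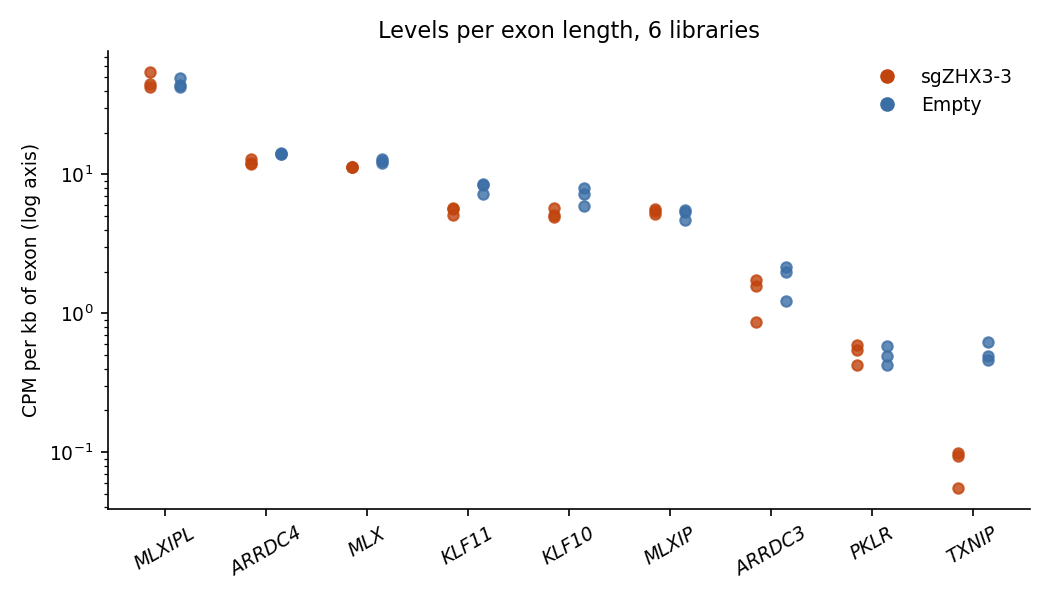
CPM per kilobase of merged exon (log axis) for the 9 genes in the sgZHX3-3 (orange, left of each pair) and Empty (blue) libraries, ordered by the mean over all 6. The genes span from 46.4 for MLXIPL to 0.303 for TXNIP, and TXNIP is the gene whose groups sit far apart on this scale.

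KLF10 and KLF11 are related repressors of the TGF-beta inducible early gene type, and variants of KLF11 have been linked to diabetes of the young. KLF11 had 26.5, 25.8 and 23.5 CPM in sgZHX3-3 and 33.0, 38.7 and 39.0 CPM in Empty, with no overlap and the lowest Empty value in Empty 1. The means were 25.2 ± 1.56 CPM (SD, n = 3) in sgZHX3-3 and 36.9 ± 3.36 CPM (SD, n = 3) in Empty, a log2 fold change of −0.55 (SE 0.0791). KLF10 had 23.0, 20.5 and 19.9 CPM in sgZHX3-3 and 23.6, 28.8 and 31.9 CPM in Empty. Its groups nearly touched: Empty 1 lay just above the highest sgZHX3-3 library, while Empty 2 and 3 lay clearly higher. The log2 fold change of KLF10 was −0.41 (SE 0.101).

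In both KLF genes, Empty 2 and 3, whose stress gene level was high, held the 2 highest values. Without them KLF11 was at −0.39 and KLF10 at −0.16. The part of the stress genes in these values was not tested. KLF11 also overlaps an antisense RNA gene, AC104794.4, so its counts are uncertain where strand was not used. The profiles of KLF10 and KLF11 over the 6 libraries were close to each other, at a root mean square distance of 0.0997 log2 units after centring each gene on its own mean; among the 9 genes only ARRDC4 and MLX were nearer to each other (0.0477). TXNIP lay between 1.02 and 1.36 log2 units from each of the other 8, the nearest being KLF11. Such distances grow with the size of the changes. Genes that change little therefore lie close together whatever their pattern, and a small distance does not show a shared one.

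PKLR, whose inner start holds the other match shown above, was expressed at a low level in both groups. It had 1.34, 1.88 and 1.73 CPM in sgZHX3-3 and 1.35, 1.57 and 1.83 CPM in Empty, and the groups overlapped across nearly their whole range. The log2 fold change was 0.06 with a standard error of 0.192 and a 95% interval from −0.35 to 0.48, a wide interval that goes with only 60 to 104 counts per library; it was 0.30 without Empty 2 and 3. Pyruvate kinase RNA was almost all PKM: PKLR made up 0.842 ± 0.127% (SD, n = 3) of the summed per-length level in sgZHX3-3 and 0.826 ± 0.165% (SD, n = 3) in Empty. PKLR overlaps HCN3, a pacemaker channel gene on the other strand that stood at 67.8 ± 3.17 CPM in sgZHX3-3 and 67.5 ± 1.06 CPM in Empty (SD, n = 3), so its few counts are uncertain.

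**Figure D3:**
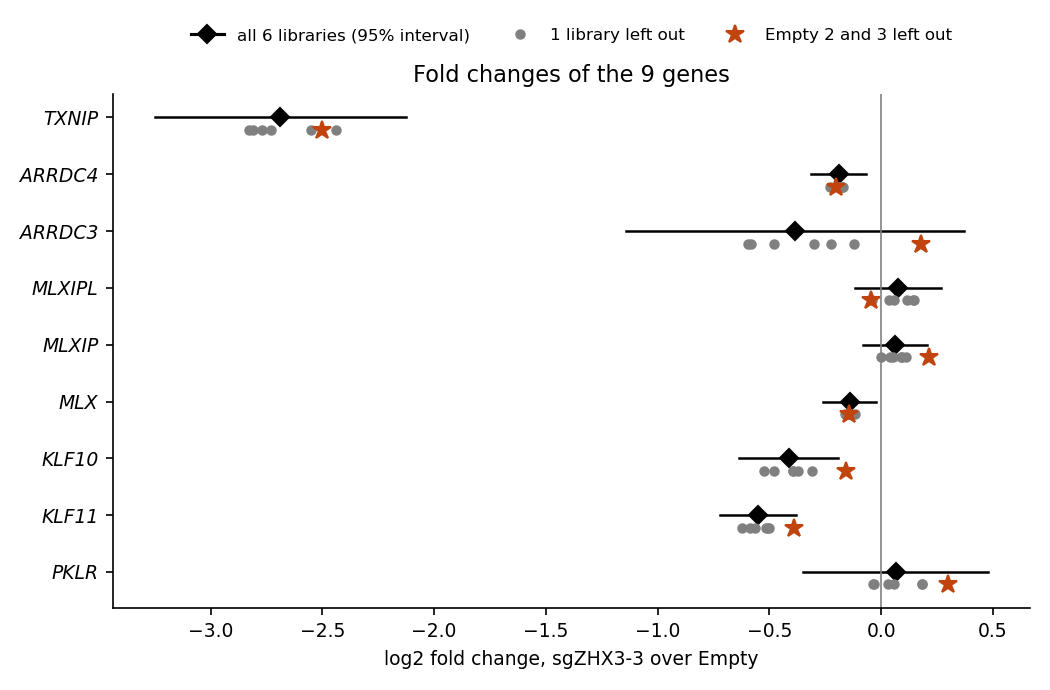
Log2 fold changes of the 9 genes, sgZHX3-3 over Empty. Diamonds with bars are the estimates and 95% intervals with all libraries, grey dots leave out a single library, and stars leave out Empty 2 and 3: TXNIP stays between −2.83 and −2.44 in all of these, KLF10 moves to −0.16 and ARRDC3 changes sign to 0.18 when Empty 2 and 3 are left out.

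In the fit across all genes (edgeR's quasi-likelihood test, Benjamini-Hochberg adjusted p below 0.05), 12.1% of the 16199 tested genes were called in either direction, 7.11% higher and 4.98% lower. Of the 9 genes, 4 were on the lower side of that threshold (TXNIP, ARRDC4, KLF10 and KLF11) and 0 on the higher side; since the genes were chosen from this comparison, nothing is read from the count. Without Empty 2 and 3 the count was 1, namely TXNIP. Without Empty 2, Empty 3 or sgZHX3-3 library 2 it was 2, TXNIP and KLF11. Leaving out sgZHX3-3 library 1 took ARRDC4 from the 4, and leaving out sgZHX3-3 library 3 took KLF10. These leave-out counts come from the same comparison, so a member that kept its place is not tested by them either. In 5 of the 9 genes (these 4 and MLX) every sgZHX3-3 library lay below every Empty library, which was the case for 16% of all tested genes. Among all genes the higher calls numbered 1151 and the lower ones 807, or 904 and 1272 with scaling by library totals.

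The remaining genes of the pathway were taken from 7 lists, and all counts below leave out the 9 genes. Medians stand beside a median of −0.002 over all tested genes, and each p is an edgeR adjusted p over all tested genes. Of the genes of these 7 lists named as higher or lower below, ACACA, SRXN1 and TXNRD1 also passed without Empty 2 and 3.

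Among further ChREBP targets, GPD1, SCD, ACACA and FASN rose, and the malic enzyme gene ME1 fell. Of 19 tested genes 6 were higher, 2 lower and 11 did not pass, with a median of 0.14. The glycerol 3-phosphate dehydrogenase gene GPD1 rose by 0.62 (33.4 ± 2.50 CPM in sgZHX3-3 and 21.8 ± 1.77 CPM in Empty, SD, n = 3; adjusted p = 0.000497). The stearoyl-CoA desaturase SCD rose by 0.52 (adjusted p = 0.000883), the acetyl-CoA carboxylase ACACA by 0.33 (adjusted p = 0.00146) and the fatty acid synthase FASN by 0.54 (adjusted p = 0.0018). ACLY (0.24, adjusted p = 0.0142) and MID1IP1 (0.20, adjusted p = 0.0306) completed the higher ones; the call of ACLY did not hold without Empty 2, Empty 3 or sgZHX3-3 library 2, and MID1IP1 kept its call without Empty 1 only. ME1, whose product makes NADPH, fell by 0.76 (18.7 ± 0.551 CPM in sgZHX3-3 and 31.6 ± 6.27 CPM in Empty, SD, n = 3; adjusted p = 0.00258). It is also a known NRF2 target, and the part of the heat shock and oxidative stress genes in its value was not tested. GPD1, SCD, ACACA, FASN and ME1 kept their call with any single library left out. Without Empty 2 and 3, ACACA alone of the 8 passed (0.37, adjusted p = 0.0431), while GPD1 was at 0.49, SCD at 0.35, FASN at 0.40 and ME1 at −0.38. SCD, FASN, ACACA and ACLY are also SREBP targets. ACACB, the other acetyl-CoA carboxylase gene (0.14, adjusted p = 0.192), and the fatty acid elongase gene ELOVL6 (0.10, adjusted p = 0.478) did not pass. G6PC2, the islet glucose 6-phosphatase, was at 0.29 (adjusted p = 0.061).

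In the thioredoxin system, on which TXNIP acts, 3 of 13 tested genes fell, none rose and 10 did not pass, with a median of −0.06. The peroxiredoxin PRDX1 fell by 0.39 (117 ± 3.28 CPM in sgZHX3-3 and 153 ± 8.54 CPM in Empty, SD, n = 3; adjusted p = 0.000941) and kept its call with any single library left out, but was at −0.31 (adjusted p = 0.0699) without Empty 2 and 3. The sulfiredoxin SRXN1 was at −1.28 (adjusted p = 0.0246) and the thioredoxin reductase TXNRD1 at −1.16 (adjusted p = 0.0453); with a single library left out SRXN1 kept its call only without Empty 1 or Empty 3, and TXNRD1 only without Empty 1. Without Empty 2 and 3 they were at −0.72 (adjusted p = 0.00558) and −0.59 (adjusted p = 0.0165). Thioredoxin itself, TXN, the direct partner of TXNIP, was at 60.8 ± 7.47 CPM in sgZHX3-3 and 70.1 ± 5.65 CPM in Empty (SD, n = 3) and did not pass (−0.21, adjusted p = 0.136). The heat shock and oxidative stress genes named above moved with these: 3 of 8 were lower and 0 higher, and their part here was not tested.

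Genes that act on TXNIP or through it held a single call. Of 15 tested partners and regulators 1 was higher and 14 did not pass, with a median of −0.03. The higher one was DDIT4, a stress-induced inhibitor of mTORC1, at 0.23 (adjusted p = 0.0252), which kept its call without Empty 1 or sgZHX3-3 library 3 but not with any other library left out. ITCH, the ubiquitin ligase that marks TXNIP for degradation, was at −0.02 (adjusted p = 0.84), and the glucose transporter SLC2A1, which TXNIP lowers at the cell surface, was at 0.12 (adjusted p = 0.147). The inflammasome gene NLRP3 was too low to test, and CASP1 had no count in any library.

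Glucose entry and phosphorylation showed 1 higher and 1 lower gene among 17 tested, with a median of 0.02. The higher gene was PFKFB2, which makes the glycolytic activator fructose 2,6-bisphosphate, at 0.23 (adjusted p = 0.0205), a call that held without Empty 1 or sgZHX3-3 library 1 but not with any other library left out. PKM, the pyruvate kinase gene that made up most of that RNA here, did not pass (0.02, adjusted p = 0.87).

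The wider network of MLX and MAX had 1 higher and 2 lower genes among 10 tested, with a median of −0.07. MYCN rose by 0.42 (adjusted p = 0.00481), a call kept with any single library left out, and was at 0.34 (adjusted p = 0.19) without Empty 2 and 3. MXI1 and MXD1, MAX partners that oppose MYC, were lower, at −0.47 (adjusted p = 0.00796) and −0.31 (adjusted p = 0.0266). The call of MXI1 did not hold without sgZHX3-3 library 2, and MXD1 passed only without Empty 1 or sgZHX3-3 library 1. Without Empty 2 and 3 they were at −0.57 and −0.09. MAX (−0.12, adjusted p = 0.2) and MYC (−0.43, adjusted p = 0.0976) did not pass.

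In the KLF family 1 of 10 tested genes was higher and 1 lower, with a median of 0.09. KLF15, a regulator of amino acid and glucose metabolism, was at 0.71 (4.21 ± 0.491 CPM in sgZHX3-3 and 2.60 ± 0.532 CPM in Empty, SD, n = 3; adjusted p = 0.0139), and KLF5 at −0.21 (adjusted p = 0.0341). KLF15 did not pass when Empty 2, Empty 3 or sgZHX3-3 library 3 was left out, and KLF5 passed only without Empty 1 or sgZHX3-3 library 3. Neither passed without Empty 2 and 3, at 0.40 for KLF15 and −0.21 for KLF5.

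**Figure D4:**
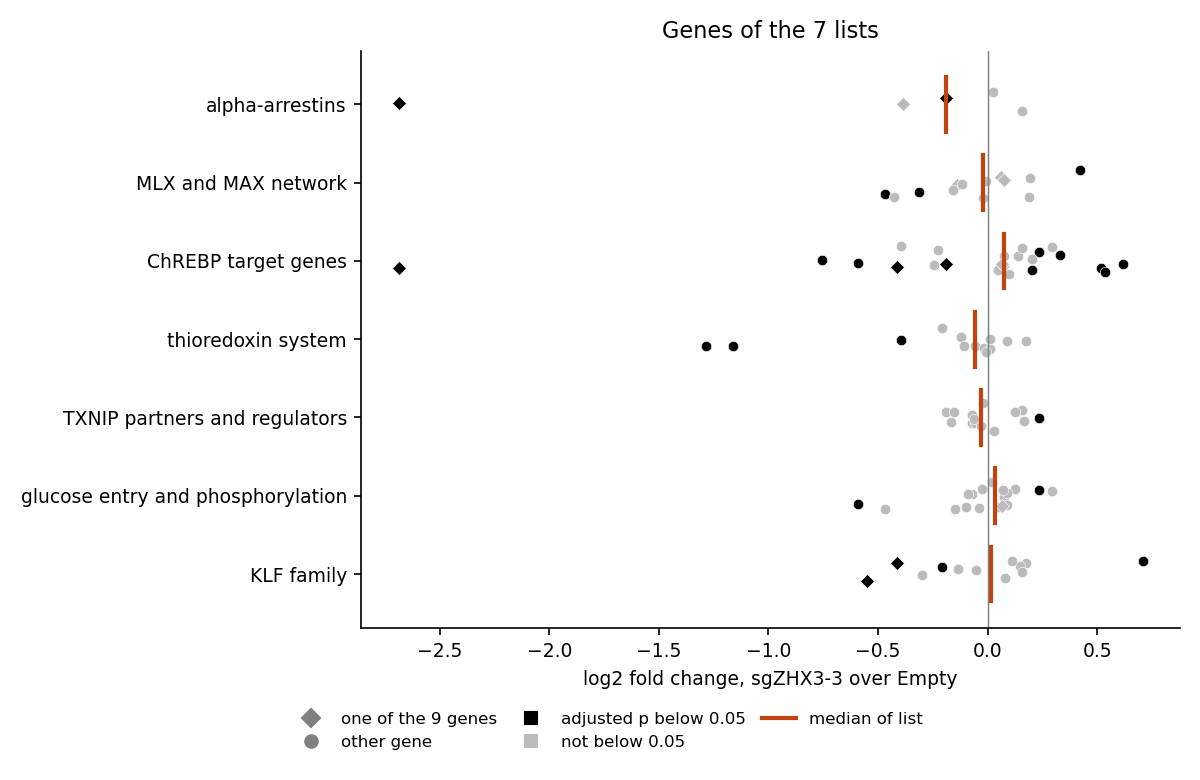
Log2 fold changes (sgZHX3-3 over Empty) of the tested genes of the 7 lists; diamonds are the 9 genes, circles other genes, black marks have an adjusted p below 0.05 and bars are list medians, here with the 9 genes included. TXNIP at −2.69 lies far left of every other gene drawn, and the ChREBP targets spread to both sides.

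The genes whose profile over the 6 libraries was nearest to that of TXNIP were HMOX1, SLC12A1, MEP1B, NQO1 and LGALS3. They were taken from 14052 genes averaging 1 CPM or more, by the root mean square distance of centred log2 CPM, which was 0.375, 0.403, 0.49, 0.498 and 0.505 log2 units in that order, against a median of 1.30 over all those genes. SLC12A1, the kidney-type sodium-potassium-chloride cotransporter gene, had 0.537, 0.521 and 0.531 CPM in sgZHX3-3 and 2.82, 2.50 and 2.08 CPM in Empty. Like TXNIP it was high in all 3 Empty libraries, and so was the meprin protease gene MEP1B, at 1.28, 0.662 and 0.73 CPM in sgZHX3-3 and 3.66, 3.90 and 2.75 CPM in Empty. The heme oxygenase gene HMOX1 had 0.850, 0.802 and 0.415 CPM in sgZHX3-3 and 1.95, 3.94 and 6.01 CPM in Empty. HMOX1 and the quinone reductase gene NQO1, both among the 8 heat shock and oxidative stress genes, were much higher in Empty 2 and 3 than in Empty 1. TXNIP was also lowest in Empty 1, by smaller steps (1.67, 1.79 and 2.24 CPM in Empty 1, 2 and 3). The part of the stress genes in its profile was not tested. Several of these genes are at about TXNIP's low count level, and the choice by likeness carries no test.

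**Figure D5:**
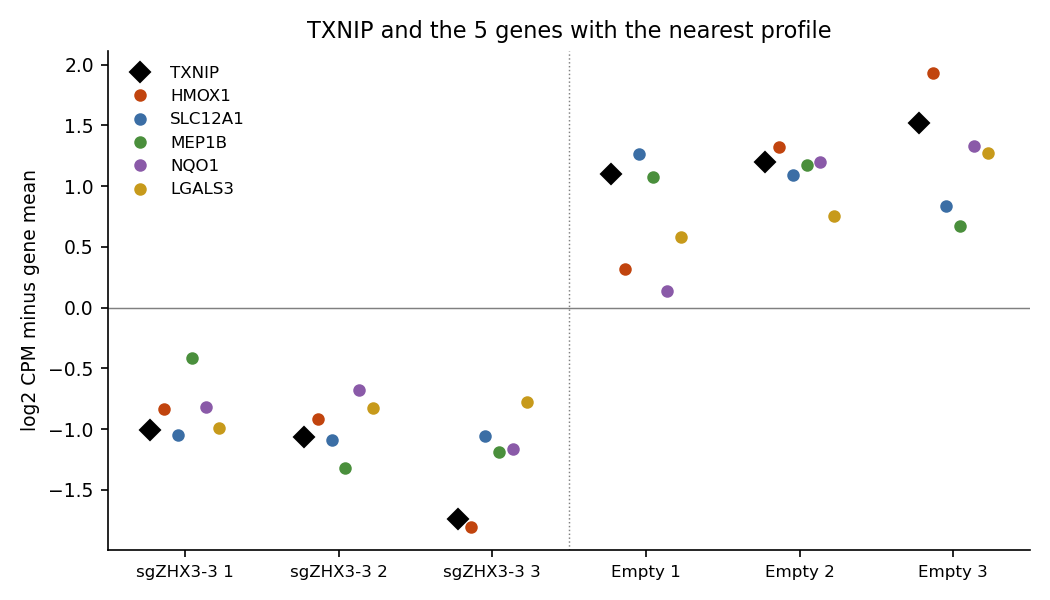
Log2 CPM minus each gene's own mean (vertical axis) in the 3 sgZHX3-3 and 3 Empty libraries for TXNIP (black diamonds) and the 5 genes nearest to it. TXNIP lies between 1.10 and 1.52 in the Empty libraries, where HMOX1 and NQO1 are low in Empty 1 (0.32 and 0.13), and SLC12A1 and MEP1B are not.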

How the data were processed

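RNA was measured in 6 cultures. Per the labels' protocols, RNA was extracted with a NucleoSpin kit and libraries were stranded (NEBNext Ultra Directional). The submitters' processing notes name STAR, featureCounts and the build hg38. Tool versions, gene annotation and the strand setting of counting: not given in the sources used here. Whole-number counts were deposited for each gene symbol, not normalized. Columns were matched to samples by group name and letter.

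Computed here: genes were kept by filterByExpr (minimum count 10, minimum total 15; 16199 of 26485), scaled by TMM (factors 0.984 to 1.02) and tested with edgeR 4.0.16 (R 4.3.3), robust quasi-likelihood, group as the only term, Benjamini-Hochberg adjustment. The common biological coefficient of variation was 6.91%. Standard errors come from the F statistic; CPM uses TMM library sizes. GENCODE 29 (GRCh38) gave coordinates and merged exon lengths; promoter windows are RefSeq's. The fit was also run on simulated counts with known changes. These were drawn independently for each gene and library, so they do not cover differences that many genes of a library share.

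Members and lists were chosen with earlier results of these data known. Named were all members, up to 4 called genes per list by adjusted p, a fixed set (TXN, TXNRD1, ITCH, SLC2A1, G6PC2, PKM, FASN, MAX, MYC, ZHX3) and the 5 genes nearest to TXNIP. ME1, ACLY, MID1IP1, ACACB, ELOVL6, ARRDC1, ARRDC2, the genes named as absent or too low, and overlapping and flanking genes were named after their values were seen. Some genes that the rule names are not reported here. Alternatives were RLE factors, library totals, 2 other filters, DESeq2 1.42.0, limma 3.58.1 (voom), a replicate block and libraries left out.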

Additional observations from a re-analysis of the deposited data

How the results depend on the processing

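Of the values recomputed under other settings, 319 kept to the limits set for them and 69 moved, and no called member changed sign. With the replicate number as a block, 516 genes were higher and 239 lower, 2 members were lower (TXNIP and KLF11), 1 other gene of the MLX and MAX network was lower, and there were 0 higher partners and regulators of TXNIP, 0 higher genes of glucose entry, and 0 higher and 0 lower other KLF genes. Whether the numbers pair the samples is not known. Deviations of same-numbered libraries correlated at −0.138, 0.0685 and −0.142. With each group centred on its own 3 libraries, such correlations are tied to each other and cannot decide it. Without Empty 2 and 3, 209 genes were higher and 40 lower, 1 member was lower, 1 other ChREBP target was higher and 0 lower, and the MLX and MAX network (0 higher, 0 lower), TXNIP partners (0 higher), glucose entry (0 higher, 0 lower) and other KLF genes (0 higher, 0 lower) held no such call; ARRDC3 was at 0.18, MLXIP at 0.21, KLF10 at −0.16 and KLF11 at −0.39. In that setting the lone Empty library is assumed to vary like the other group. With library totals, 1272 genes were lower and 1 TXNIP partner was lower. MLX was at −0.18 in that setting and joined the members on the lower side, which then numbered 5. Without an expression filter 1 thioredoxin system gene was lower. With DESeq2 2 glucose entry genes were higher and 2 other KLF genes lower. With single libraries left out, genes higher ranged from 474 to 1792 and genes lower from 184 to 1499, both lowest without Empty 3 and highest without Empty 1, and members lower from 2 to 4. In the lists without members, lower genes ranged from 0 to 3 (MLX and MAX network), 1 to 4 (thioredoxin system), 0 to 2 (TXNIP partners) and 0 to 2 (KLF family), and higher genes from 0 to 1 (thioredoxin system), 0 to 2 (TXNIP partners), 0 to 2 (glucose entry) and 0 to 1 (KLF family). The causes were not tested. At 12 to 17 counts per sgZHX3-3 library, depth limits the precision of TXNIP.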

Other observations

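The genes that flank the 9 on their chromosomes were looked at after the values were seen. Of the nearest protein-coding genes on either side, 18 in all, 15 could be tested. Of these, 2 were higher, 0 lower and 13 did not pass, with log2 fold changes from −0.18 to 0.32. Among all tested genes 7.11% were higher and 4.98% lower, and nothing is read from the counts of flanking genes. The neighbours of TXNIP on chromosome 1 were POLR3GL, a subunit gene of RNA polymerase III, at 11.7 ± 0.241 CPM in sgZHX3-3 and 12.7 ± 0.539 CPM in Empty (SD, n = 3; −0.12, edgeR adjusted p = 0.342), and NBPF10, at −0.07 (edgeR adjusted p = 0.887), which belongs to a family of near-identical copies, so its counts are uncertain. The higher flanking genes were FDPS, an enzyme of isoprenoid synthesis next to PKLR (0.28, edgeR adjusted p = 0.0115), and ADGRV1, a very long receptor gene next to ARRDC3 (0.28, edgeR adjusted p = 0.0301).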
